A study of Homo sapiens with 6 samples.

Results

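The 83 genes described here are the cytosolic ribosomal protein genes among the 60504 genes of the deposited table, chosen by name: protein-coding genes whose names start with RPL or RPS and a digit, and RPLP0, RPLP1, RPLP2 and RPSA. Kinases named RPS6K and paralogs whose names end in L, or in L and a digit after the family number, were left out. Read letter by letter, the exclusion would also drop RPL3 to RPL9 and leave 76 genes; those 7 are core proteins of the large subunit and were kept. Of the 83, 46 encode proteins of the large subunit and 31 proteins of the small subunit, and these 77 are called ribosomal protein genes below. The other 6 are described apart or not at all: 3 readthrough genes that join a ribosomal protein gene to its neighbour, RPS19BP1, a protein that binds RPS19, and 2 copies of RPS4 on the Y chromosome, which did not pass the filter on low values and for which no value is given. The name rule itself uses no measured value, but the members were chosen with earlier results of these data known.

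The samples were 6 libraries of poly(A) RNA from HCC827, an established human lung adenocarcinoma cell line. In the 2D group, 3 libraries came from cells grown on flasks for 4 to 6 days after 1000000 cells were passaged. In the 3D group, 3 libraries came from tumoroids grown for 12 to 16 days in growth factor reduced Matrigel (a gel of basement membrane proteins), as droplets seeded with 50000 cells. Both groups were fed the same RPMI 1640 medium with GlutaMAX, fetal bovine serum, penicillin and streptomycin, and the tumoroids were passaged with Dispase and a ROCK inhibitor, which the flask cultures were not. Geometry, culture time, seeding, contact with the gel and passaging with Dispase and a ROCK inhibitor cannot be told apart in this design. Whether the replicates were grown as separate cultures is not stated in the labels. The p-values then reflect the spread between these samples only, which may be technical.

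A ribosome has a small subunit, which binds the mRNA and reads its codons, and a large subunit, which joins the amino acids. Each is built in the nucleolus from ribosomal RNA and one set of proteins, nearly all of them present at the same copy number, so cells make the proteins in a coordinated way. Their mRNAs belong to the TOP class, which starts with a C followed by an unbroken stretch of C and T (U in the RNA). Through this stretch the growth-sensing kinase mTORC1, with the protein LARP1, sets how strongly these mRNAs are translated and how stable they are. Transcription of the genes is raised by MYC, among others, and ribosomal protein production follows the growth rate of a culture.

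The starts of the genes on which the results below turn are shown with 15 bases before and 15 bases from the transcript start in RefSeq (GRCh38.p14), with the C and T stretch in capitals. The first 3 are the genes with the lowest fold changes that have an entry, and the next 2 lie at the other end of the order. RPL19 and RPL3 are the lowest members without such a stretch at the listed start. EEF1B2 and EIF3K are other TOP mRNAs that fell in 3D, and RRN3 and GNL3 are ribosome assembly genes that rose and have no such stretch.
RPSA, chr3:39406705-39406734 on the plus strand: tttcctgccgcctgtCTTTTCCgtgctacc
RPLP1, chr15:69452803-69452832 on the plus strand: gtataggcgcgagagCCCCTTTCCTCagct
RPLP0, chr12:120201097-120201126 on the minus strand: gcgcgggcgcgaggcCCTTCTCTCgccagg
RPL34, chr4:108620561-108620590 on the plus strand: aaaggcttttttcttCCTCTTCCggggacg
RPL38, chr17:74203663-74203692 on the plus strand: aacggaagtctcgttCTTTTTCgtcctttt
RPL19, chr17:39200308-39200337 on the plus strand: gagcgagctctttcctttcgctgctgcggc
RPL3, chr22:39319609-39319638 on the minus strand: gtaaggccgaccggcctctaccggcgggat
EEF1B2, chr2:206159880-206159909 on the plus strand: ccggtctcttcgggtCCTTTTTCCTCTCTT
EIF3K, chr19:38619173-38619202 on the plus strand: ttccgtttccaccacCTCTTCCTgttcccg
RRN3, chr16:15094321-15094350 on the minus strand: cggggccgctgattggctgaaggttgcgct
GNL3, chr3:52685905-52685934 on the plus strand: cgcaaaaccagtcccgcggccgccaagcga

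A stretch of this kind, a C at the transcript start followed by at least 4 bases that are each C or T, was searched on the transcribed strand only, since the RNA carries it. It stood at a listed start of 46 of the 62 ribosomal protein genes with an entry (74.2%), against 5.14% of all 27305 genes in the RefSeq table and 7.23% of the tested genes with an entry. In those 46 genes the stretch was 5 to 19 bases long, with a median of 8. It was found at 13 of 14 other TOP mRNAs of translation and at 2 of 13 genes of RNA polymerase I. It stood at 3 of 25 genes listed here for small subunit assembly and 4 of 36 listed for large subunit assembly. The 46 ribosomal protein genes with the stretch had log2 fold changes, 3D against 2D, from -0.63 to 0.19 with a median of -0.23, and the 16 without it from -0.46 to -0.22 with a median of -0.34. RPSA, RPLP1 and RPLP0, at the low end, and RPL34 and RPL38, at the high end, all carry it, but 6 of the 10 lowest genes with an entry do not, RPL19 and RPL3 among them. Of the 46 genes with the stretch, 22 lay above the highest of the 16. In 7 of the 16, RPL19 and RPL3 among them, a stretch of this kind begins within 5 bases of the listed start. The exact start position therefore bears on this split. With that looser search 53 of the 62 genes had a stretch (85.5%), against 29.2% of the tested genes with an entry. The genes share libraries and the split was not tested.

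Levels are given in TPM, shares of transcripts that are corrected for transcript length and sum to the same total in every library. Sequencing depth cannot be read from them, so no counting interval can be given. All 77 ribosomal protein genes were above 0 in every library and made up 54 of the 100 most abundant genes. Their mean TPM over the 6 libraries ran from 183 to 14157 with a median of 2164, although the proteins are needed in like amounts. RPL7, a large subunit protein, was the highest in all 6 libraries, at 12384, 12364 and 13062 TPM in 3D and 14307, 17839 and 14985 in 2D. No reads or transcript values were used here, so the source of a level so far above the other members could not be examined. RPL10 (6840 TPM on average), RPL41 (6691), RPL26 (6321) and RPL39 (5404) followed. The lowest were RPS26, a small subunit protein at the mRNA exit, at 183 TPM, RPL22 at 328 and RPL21 at 345.

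Together the 77 genes held 17.3%, 17.0% and 19.3% of the TPM in 3D replicates 1, 2 and 3 and 21.9%, 23.4% and 19.0% in the 2D replicates. The 3D mean was 17.9% ± 1.23 and the 2D mean 21.4% ± 2.21 (SD, n = 3 each). The groups overlapped by 1 pair of libraries, since 3D replicate 3 stood above 2D replicate 3, and the difference did not pass an exact two-sided permutation test (p = 0.2, where 3 against 3 libraries cannot go below 0.1). Transcripts of the mitochondrial genome took 19.4%, 19.4% and 12.3% of the TPM in the 3D replicates and 14.4%, 15.7% and 17.5% in the 2D replicates, so they were lowest of their group in 3D replicate 3 and highest of their group in 2D replicate 3. As a share of nuclear protein-coding TPM, ribosomal proteins held 22.8%, 22.5% and 23.2% in 3D and 27.1%, 29.6% and 24.6% in 2D. On that scale all 3D libraries lay below all 2D libraries (exact two-sided permutation p = 0.1). With TPM rescaled to that total, 5 of the 77 genes were called lower by the gene by gene test described next, where 2.95% of the genes tested on that scale were called lower.

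**Figure D1:**
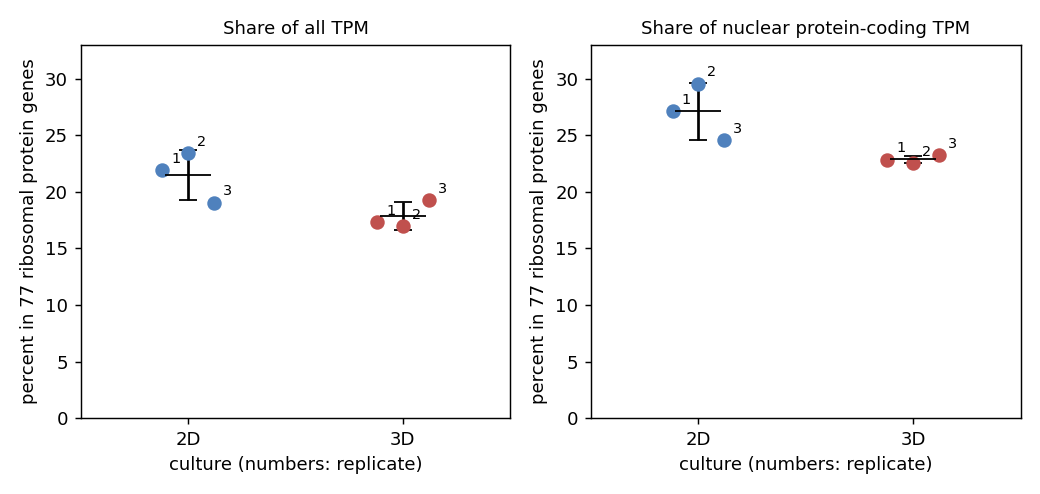
Percent of TPM in the 77 ribosomal protein genes by culture, over all TPM (left) and over nuclear protein-coding TPM (right). Points are libraries with their replicate number, and the bar and whiskers are the mean and SD (n = 3). On the left 3D replicate 3 (19.3%) stands above 2D replicate 3 (19.0%), and on the right the groups do not overlap.

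Gene by gene, 2 ribosomal protein genes fell in 3D, none rose and 75 were not called (limma on log2(TPM + 1), Benjamini-Hochberg adjusted p under 0.05 over 15042 tested genes). Among all tested genes 2.12% were called lower and 10.2% higher, so the share of 2 in 77 is near the background. At an unadjusted p under 0.05, 14 were lower and none higher, where 8.25% of all tested genes were lower. The log2 fold changes were small and mostly of one sign: 74 of 77 were negative, with a median of -0.26 and a middle range from -0.33 to -0.19. Across all tested genes 39.2% were negative and the median was 0.12. In 31 of the 77 (40.3%) every 3D library lay below every 2D library, against 9.4% of tested genes. In 1, RPL38, every 3D library lay above every 2D library, against 27.3% of tested genes, and in 45 the groups overlapped.

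The sign held under other scalings and the size did not. With libraries scaled by median ratios the median of the ribosomal protein genes was -0.44 and 76 were negative, while the median of all tested genes moved from 0.12 to -0.03. After quantile normalization the median was -0.12 with 67 negative, and the median of all tested genes was again -0.03. Bulk RNA cannot tell fewer cells of a type from less RNA per cell, and a TPM share also moves when other genes take more of the total.

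**Figure D2:**
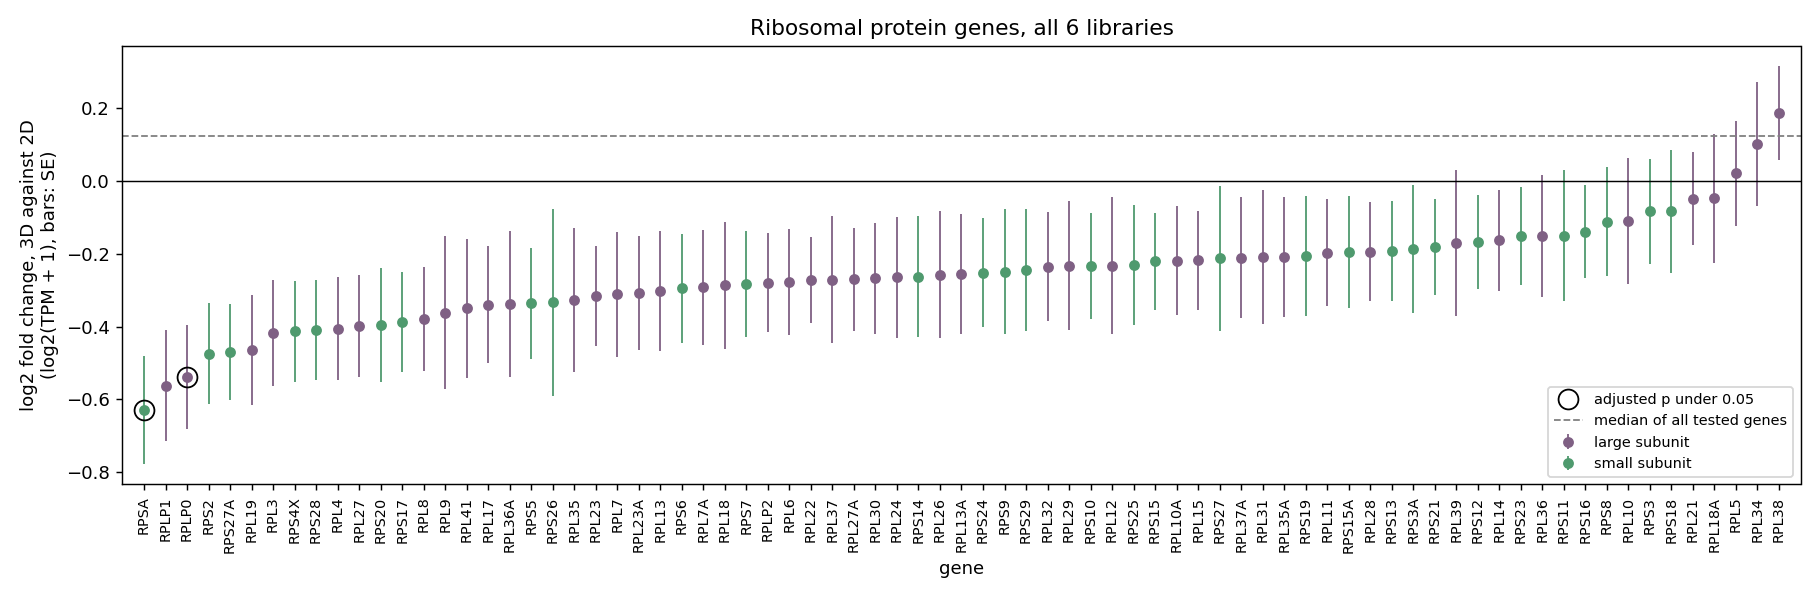
Log2 fold change, 3D against 2D, of each of the 77 ribosomal protein genes on the log2(TPM + 1) scale, ordered from lowest to highest, with bars of 1 SE. Points are coloured by subunit, circles mark the genes with adjusted p under 0.05 (RPSA and RPLP0), and the dashed line is the median of all tested genes (0.12); RPL5, RPL34 and RPL38 are the only points above 0.

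The 3D and 2D libraries numbered 3 stood apart from the others in these genes. In 2D, replicate 3 was the lowest of the 3 libraries in 64 of 77 genes and replicate 2 the highest in 53. In 3D, replicate 3 was the highest in 61 and replicate 2 the lowest in 50. Compared library by library, 3D replicate 2 was below 2D replicate 2 in 76 of 77 genes. The 8 pairs other than the one of both libraries numbered 3 gave 57 to 76 lower. In these 8 pairs 35.3% to 46.4% of all tested genes were lower. For 3D replicate 3 against 2D replicate 3 the count was 37 of 77 (48.1%), where 36.9% of all tested genes were lower in that pair.

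Without those libraries, which leaves 2 against 2, 50 of the 77 genes (64.9%) were called lower in 3D and none higher (limma, adjusted p under 0.05), where 8.24% of all tested genes were called lower and 15.2% higher. The median log2 fold change of the 77 genes was then -0.41. In most of these same genes the libraries left out were the highest of 3D and the lowest of 2D. Leaving them out thus widens the gap by construction, and the count is no separate evidence of a fall. Leaving out only 3D replicate 3 or only 2D replicate 3 gave 3 lower genes each, and leaving out any other single library gave none. The number of ribosomal protein genes called thus differed from 0 to 50 with the libraries included. How these libraries came to differ was not tested.

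**Figure D3:**
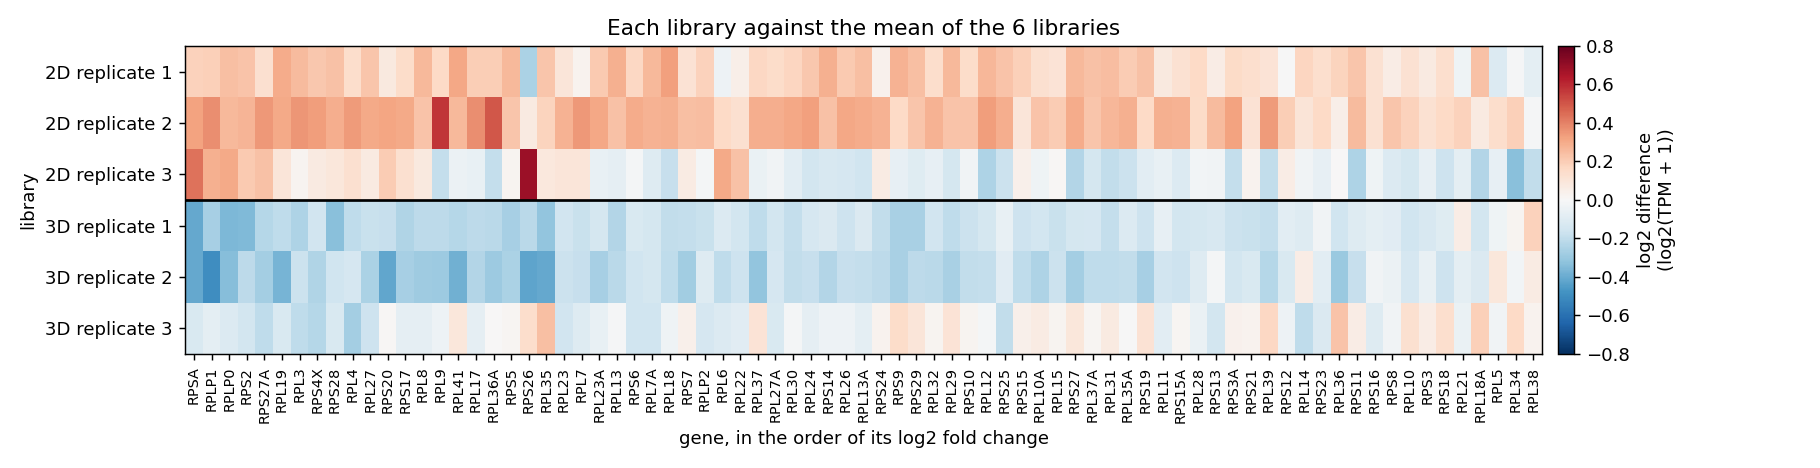
Log2 difference of each library from the mean of the 6 libraries, on the log2(TPM + 1) scale, for the 77 ribosomal protein genes ordered by log2 fold change. Red is above and blue below the mean; 2D replicates 1 and 2 are red and 3D replicates 1 and 2 blue for most genes, while 2D replicate 3 and 3D replicate 3 lie near the mean for many.

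RPSA, the laminin receptor protein that sits at the mRNA exit of the small subunit (ENSG00000168028, chr3:39406689-39412542 on the plus strand of GRCh38), had the lowest fold change of all. It stood at 1079, 1081 and 1318 TPM in 3D and at 1633, 1797 and 1937 TPM in 2D. All 3D libraries lay below all 2D libraries by a clear gap. The gene fell, to a 3D mean of 1159 ± 138 TPM against 1789 ± 152 (SD, n = 3 each; log2 fold change -0.63, SE 0.15, limma adjusted p = 0.0354). Among 18 alternatives the highest adjusted p was 0.155. The threshold was missed when no filter on low TPM was used and when any 1 of the libraries numbered 1 or 2 was left out.

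The stalk of the large subunit, which recruits the translation factors, is formed by RPLP0 with RPLP1 and RPLP2. RPLP0 (ENSG00000089157, chr12:120196686-120201235 on the minus strand) had 2281, 2312 and 2716 TPM in 3D and 3463, 3496 and 3618 in 2D. The lowest 2D library was well above the highest 3D library, and the gene fell (log2 fold change -0.54, SE 0.14, limma adjusted p = 0.0493). It was called in 9 of the 18 alternatives, and the highest adjusted p among them was 0.264. RPLP1 had 983, 835 and 1119 TPM in 3D against 1349, 1526 and 1438 in 2D, also without overlap, and missed the threshold (log2 fold change -0.56, SE 0.15, limma adjusted p = 0.0523). RPLP2 had 1320, 1395 and 1361 TPM in 3D against 1703, 1774 and 1483 in 2D, a smaller gap (log2 fold change -0.28, SE 0.13). In all 3 stalk genes every 3D library lay below every 2D library, as in 31 of the 77 ribosomal protein genes (40.3%) and 9.4% of tested genes.

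RPL5 and RPL11 carry the 5S ribosomal RNA into the large subunit and, when free of it, bind and inhibit the p53 ubiquitin ligase MDM2. RPL5 had 2822, 3083 and 2841 TPM in 3D and 2684, 3191 and 2767 in 2D. The ranges lay on top of each other, with a log2 fold change of 0.02 (SE 0.14) that turned to -0.16 under median-ratio scaling. RPL11 had 2096, 1973 and 2070 TPM in 3D and 2310, 2664 and 2099 in 2D, and the lowest 2D library lay just above the highest 3D library (log2 fold change -0.20, SE 0.15).

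Of 9 proteins around the tunnel through which the new peptide leaves, none was called, where 2.12% of all tested genes were called lower. Of the 77 ribosomal protein genes 74 had negative log2 fold changes, and so did all 9 here, with median -0.31. RPL19, at 3168, 2824 and 3348 TPM in 3D and 4485, 4491 and 3899 in 2D, had the lowest (log2 fold change -0.46, SE 0.15, limma adjusted p = 0.083). RPL26, at the tunnel exit, had 5589, 5520 and 6096 TPM in 3D and 7248, 7760 and 5715 in 2D, and RPL39, inside it, 4682, 4552 and 5984 in 3D and 5774, 6767 and 4664 in 2D. RPL26 overlapped through 2D replicate 3 alone, and in RPL39 the highest 3D library also stood above 2D replicate 1.

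On the small subunit, all 31 genes had negative log2 fold changes, with a median of -0.23, where 74 of all 77 ribosomal protein genes were negative. RPSA was the one called, where 2.12% of all tested genes were called lower. Of 12 proteins that line the mRNA entry, the decoding site or the exit, RPSA was the 1 that fell, and the other 11 were not called in either direction. RPS2, at the mRNA entry, had 2533, 2800 and 2924 TPM in 3D against 3796, 3915 and 3745 in 2D, with no overlap (log2 fold change -0.47, SE 0.14, limma adjusted p = 0.0636). RPS27A, made as a fusion with ubiquitin, had 1594, 1547 and 1628 TPM in 3D against 2042, 2376 and 2200 in 2D, also apart (-0.47, SE 0.13, limma adjusted p = 0.0585). RPS18, in the head of the subunit, had 3978, 3782 and 4672 TPM in 3D and 4670, 4738 and 3782 in 2D; its log2 fold change of -0.08 (SE 0.17) turned to 0.01 after quantile normalization. RPS6, the protein phosphorylated by the S6 kinases downstream of mTORC1, had 3570, 3482 and 3489 TPM in 3D, a narrow range, and 4358, 4785 and 3844 in 2D (-0.30, SE 0.15, limma adjusted p = 0.219).

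The proportion of the subunits overlapped between the cultures. Summed TPM of small subunit genes was 0.519, 0.525 and 0.518 of that of large subunit genes in 3D and 0.515, 0.504 and 0.522 in 2D (exact two-sided permutation p = 0.3). The median log2 fold change was -0.27 for the 46 large subunit genes and -0.23 for the 31 small subunit genes. Of 19 genes mutated in Diamond-Blackfan anemia, an inherited failure of red cell production, none was called, 18 were negative and the median was -0.25. Of all 77 ribosomal protein genes 74 were negative, with a median of -0.26, and 2.12% of all tested genes were called lower. The 28 ribosomal protein genes that carry snoRNA genes within their bounds in GENCODE 29, whose introns yield guide RNAs for rRNA modification, had a median of -0.26, and the 49 others -0.25. Across the 77 genes, the log2 fold change had a Spearman correlation of -0.07 with the mean TPM and of -0.27 with the median length of the coding transcripts. These describe genes measured in the same libraries and are not independent points.

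To see which members departed from the common shift, each library was divided by the geometric mean of the 77 genes and all genes were fitted again. None of them was called lower than the others, and RPL38 was called higher, as was the readthrough gene RPS10-NUDT3 (limma, adjusted p = 0.0471 and 0.0387). On this scale 0.977% of all tested genes were called lower and 21.3% higher, and the adjustment ran over all of them. The share called higher was 10.2% before this scaling, so the scaling itself eased the threshold for a higher call. No adjustment over the 77 genes alone was made (unadjusted limma p of RPL38 0.0101). The call therefore does not show that RPL38 departed from the other members. RPL38, a small large-subunit protein known for a part in the translation of Hox mRNAs (ENSG00000172809, chr17:74203582-74210655 on the plus strand), had 1189, 1099 and 1070 TPM in 3D and 994, 1043 and 915 in 2D. It was the 1 ribosomal protein gene with every 3D library above every 2D library, with a difference of 0.44 (SE 0.14) from the other members and a log2 fold change of 0.19 (SE 0.13, limma adjusted p = 0.355) on the TPM scale. RPL34 had 1571, 1524 and 1729 TPM in 3D and 1541, 1772 and 1229 in 2D, with a log2 fold change of 0.10 (SE 0.17) that became -0.08 under median-ratio scaling. The number of members called above the others was 0 with quantile normalization or no filter, and 0 to 2 with a single library left out.

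The 4 other matches to the name rule with no Y linkage were low. RPS10-NUDT3 had 18.7, 18.6 and 25.02 TPM in 3D and 18.3, 13.6 and 14.4 in 2D (log2 fold change 0.41, SE 0.18, limma adjusted p = 0.164), and reads shared with RPS10, at 2048 TPM on average, make its value uncertain. RPL17-C18orf32 averaged 93.8 TPM (3D) and 86.2 TPM (2D), with a log2 fold change of 0.13 (SE 0.19, and -0.04 under median-ratio scaling), and shares its reads with RPL17 in the same way. RPS19BP1 had 42.1 and 47.7 TPM (-0.18, SE 0.16). RPL36A-HNRNPH2 did not pass the filter.

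Processed pseudogenes, copies of the mRNAs inserted in the genome, share reads with their parents. The 1008 pseudogenes named after ribosomal protein genes summed to 6075, 5605 and 6563 TPM in 3D and 7216, 7862 and 7079 in 2D, which is 3.29% to 3.72% of the TPM of the genes themselves. The cultures did not overlap in this sum (exact two-sided permutation p = 0.1, the smallest possible). In RPL9 and RPS23 the pseudogenes held 46.0% and 44.9% of the sum of gene and pseudogenes, mainly RPL9P9 with a mean of 1969 TPM and RPS23P8 with 1331. RPL9 itself had 1954, 1852 and 2198 TPM in 3D and 2530, 3360 and 1987 in 2D. Adding the pseudogene TPM to each member left 2 genes called and the median at -0.26.

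FAU and RACK1 encode ribosomal proteins under other names. FAU, a fusion of a ubiquitin-like protein with RPS30, had 840, 781 and 961 TPM in 3D and 1115, 1094 and 1029 in 2D. The groups were apart, with a log2 fold change of -0.33 (SE 0.14) that was not called (limma adjusted p = 0.143). RACK1, a scaffold on the small subunit head that the table lists as GNB2L1, had 2909 ± 132 TPM in 3D and 3175 ± 377 in 2D (SD, n = 3 each; log2 fold change -0.12, SE 0.15, and 0.03 after quantile normalization).

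The paralogs that the rule leaves out had no common sign. RPL22L1, which can replace RPL22, had 329, 281 and 383 TPM in 3D and 309, 356 and 149 in 2D, where 2D replicate 3 alone was low (log2 fold change 0.37, SE 0.32, and -0.01 without that library). RPL7L1, a nucleolar relative of RPL7, had 77.9, 84.3 and 79.8 TPM in 3D and 63.7, 60.6 and 63.4 in 2D, apart in the upward direction (0.36, SE 0.11, limma adjusted p = 0.0729). RPL26L1 had means of 69.9 and 88.1 TPM in 3D and 2D, RPL39L 29.8 and 34.5, RPS27L 54.4 and 56.7, and RPL36AL 317 and 301. None of these 6 was called; RPL36AL (0.07) turned to -0.11 under median-ratio scaling and RPS27L (-0.05) to 0.08 without 2D replicate 2. RPL3L, a muscle paralog, had 0.083 and 0.233 TPM, and the testis gene RPL10L was listed at 0 in every library.

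Other mRNAs of the TOP class, translation factors in the main, also had mostly negative values. Of 21 tested, 3 were called lower and none higher, with 18 on neither side, where 2.12% of all tested genes were called lower, and the median was -0.22. EIF3K, a subunit of the initiation factor eIF3, had 176, 149 and 170 TPM in 3D and 268, 274 and 244 in 2D (log2 fold change -0.66, SE 0.13, limma adjusted p = 0.018). EEF1D fell from 471 ± 15.1 to 339 ± 10.1 TPM (SD, n = 3 each; -0.48, SE 0.11) and EEF1B2, like EEF1D a factor that reloads the elongation factor eEF1A, from 954 ± 63.5 to 650.3 ± 66.9 TPM (-0.55, SE 0.14). EEF1A1 itself had 8577, 9144 and 7627 TPM in 3D and 9887, 11198 and 7606 in 2D, overlapping through 2D replicate 3, which lay below all 3D libraries (-0.16, SE 0.20). None of the 3 calls held when any 1 of the libraries numbered 1 or 2 was left out. Those of EEF1D and EEF1B2 were also lost with no filter, without a trend and with the replicate block, and that of EEF1B2 without 2D replicate 3.

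Genes whose products make ribosomes had mostly positive values, as did all tested genes, of which 39.2% were negative. Of 14 tested genes of RNA polymerase I, which transcribes ribosomal RNA, 3 rose and none fell, where 10.2% of all tested genes were called higher, and the median was 0.14. RRN3, the initiation factor that brings the polymerase to the promoter, had 27.3, 28.6 and 24.1 TPM in 3D and 15.8, 14.6 and 14.9 in 2D (log2 fold change 0.78, SE 0.13, limma adjusted p = 0.012). The subunits POLR1C and TWISTNB rose by 0.62 (SE 0.13) and 0.55 (SE 0.14), calls that were lost under median-ratio scaling and under quantile normalization. Both were also lost without any 1 of the libraries numbered 1 or 2. That of TWISTNB was lost as well with no filter, without a trend, with the replicate block and without 2D replicate 3. Of 29 genes listed here for small subunit assembly, 5 rose and none fell, against the same 10.2%, with a median of 0.17. The list includes RRS1, a factor of the large subunit, which was not called. RIOK1, a kinase of the last assembly steps, rose from 6.92 ± 0.419 to 14.5 ± 2.13 TPM (SD, n = 3 each; 0.96, SE 0.15, limma adjusted p = 0.0113). MPHOSPH10, a component of the early processome, rose from 20.03 ± 1.47 to 36.6 ± 4.47 TPM (0.83, SE 0.14) and NOP58, a core protein of the snoRNA particles that methylate rRNA, from 76.1 ± 8.08 to 116 ± 13.8 TPM (0.60, SE 0.15). The NOP58 call was lost under median-ratio scaling, under quantile normalization, with no filter, without a trend and with the replicate block.

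Of 43 genes of large subunit assembly 1 rose, GNL3 (nucleostemin), where 10.2% of all tested genes did, from 68.9 ± 5.93 to 117 ± 19.1 TPM (SD, n = 3 each; 0.74, SE 0.16, limma adjusted p = 0.025), and none fell; the median was 0.19. The GNL3 call was lost under median-ratio scaling and with no filter. All 7 of these assembly and polymerase genes had every 3D library above every 2D library, which their choice as called genes makes likely. Over the whole lists this held for 3 of 14 polymerase, 12 of 29 small subunit and 13 of 43 large subunit assembly genes. Among all tested genes it held for 27.3%. The medians of these lists, 0.14 to 0.19, lie near the 0.12 of all tested genes, whereas the median of the ribosomal protein genes lies below 0. Whether the lists differ was not tested. All 7 calls were lost without 3D replicate 1 and without 3D replicate 2. Without 2D replicate 2 all but that of MPHOSPH10 were lost. Without 2D replicate 1 those of POLR1C, TWISTNB, NOP58 and GNL3 were lost. Of 16 chaperones and importers of ribosomal proteins none was called, with a median of -0.06; NACA, which shields new peptides, had 1690 ± 107 TPM in 3D and 2001 ± 255 in 2D. NAP1L1, a histone and ribosomal protein chaperone, had 393 ± 97.7 and 409 ± 45.1 TPM.

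**Figure D4:**
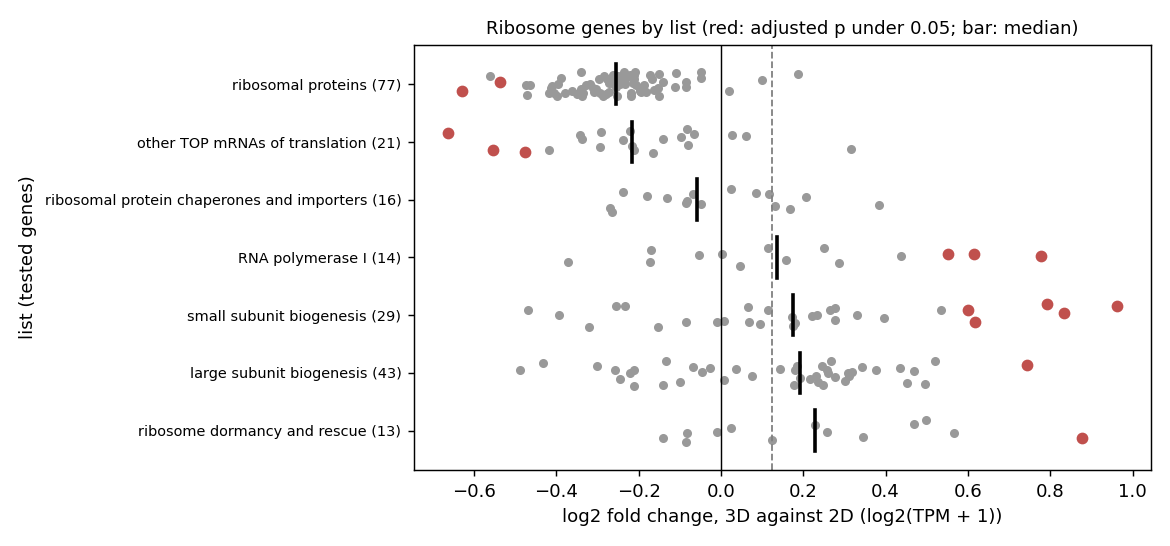
Log2 fold change, 3D against 2D, on the log2(TPM + 1) scale for ribosomal protein genes and 6 other lists of ribosome genes, 1 point per tested gene (number in brackets), with the median of each list as a black bar and the median of all tested genes as a dashed line. Red points passed adjusted p under 0.05; they lie at negative values in the upper 2 lists (2 and 3 genes) and at positive values in the polymerase, assembly and rescue lists. The vertical scatter within a list carries no value.

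Among 19 regulators of ribosomal protein synthesis 1 rose and none fell, where 10.2% of all tested genes were called higher. It was MYC, at 349, 312 and 289 TPM in 3D and 105, 90.03 and 106 in 2D, far apart (log2 fold change 1.65, SE 0.13, limma adjusted p = 0.000811), and it kept the call under all 18 alternatives. In the p53 pathway that free ribosomal proteins act on, 2 of 4 genes rose, where 10.2% of all tested genes were called higher. CDKN1A, the p53 target that halts the cell cycle, had 37.0, 46.8 and 37.5 TPM in 3D and 6.83, 5.76 and 7.76 in 2D (2.41, SE 0.16, limma adjusted p = 0.000334), called under all 18 alternatives. The other called gene, MDM2, rose from 17.5 ± 0.287 to 30.3 ± 6.90 TPM (SD, n = 3 each; 0.74, SE 0.18), which was not called after median-ratio scaling or quantile normalization, with no filter, without a trend or without any single library other than 3D replicate 3.

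The summed TPM of 7 epithelial markers was 4319 to 7937 in 3D and 6437 to 8944 in 2D, with KRT19 and KRT8 the most abundant. Leukocyte markers summed to at most 3.75 TPM in any library (CD14 2.75 in 3D and 2.56 in 2D). Fibroblast markers summed to 6.99 to 12.1 TPM in 3D and 2.1 to 2.96 in 2D, with COL3A1 at 0 throughout and COL1A1 rising from 2.297 ± 0.248 to 7.56 ± 2.78 TPM (SD, n = 3 each; log2 fold change 1.33, SE 0.25, limma adjusted p = 0.017). Endothelial markers summed to 1.51 to 3.98 and 0.68 to 1.46 TPM. Of the 15 genes in those 3 lists 13 had a mean under 1 TPM. The part of the markers in the differences above was not tested.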

How the data were processed

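RNA was measured in 6 HCC827 libraries, 3 per culture, grouped by the sample titles. Values are TPM per gene as deposited by the authors in a single table, rounded to 2 decimals. The tools named in the submitters' processing notes are RSEM 1.3.1, STAR 2.7.0d and cutadapt 2.3, and the build is hg38; their roles and order, the strand setting, the annotation release and the filters were not given in the sources used here. Depth is unknown.

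The 15042 genes averaging 1 TPM or more were fitted on log2(TPM + 1) with limma 3.58.1 (lmFit, eBayes with a trend) in R 4.3.3, two-sided, Benjamini-Hochberg over all of them, threshold 0.05; fold changes on this scale understate those of low genes. Of the 83 members 80 passed this filter, all 77 ribosomal protein genes among them. Sums were compared by exact permutation over libraries in scipy 1.17.1. The fit was tested on simulated data. Members, lists and alternatives were chosen with earlier results of these data known. Members named were those called, the 5 lowest and 5 highest fold changes, the 10 most abundant, those called against the other members and 6 fixed ones, with every gene of the outside-rule lists and up to 3 called genes, or the 2 most abundant, of each other list; others were named after their values were seen. Some of what this rule picks is not reported here. Coordinates came from GENCODE 29 (GRCh38), where all 83 members were found by identifier, and starts from RefSeq.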

Additional observations from a re-analysis of the deposited data

How the results depend on the processing

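The 2 genes called lower became 0 without a filter on low TPM, 5 at a mean of at least 5 TPM, 6 under median-ratio scaling, 5 when rescaled over nuclear protein-coding genes, 1 under quantile normalization, 1 without a trend and 50 without replicate 3 of both groups, and 0 to 3 with single libraries left out. None was called higher under any alternative. The median log2 fold change of -0.26 moved to -0.44 under median-ratio scaling, -0.12 under quantile normalization and -0.41 without replicate 3 of both groups, and lay between -0.35 and -0.18 with single libraries left out. The 2 genes called above the other members became 0 without a filter and under quantile normalization, 1 without a trend, and 0 to 2 with single libraries left out; 1 gene was called below the others without replicate 3 of both groups. With the replicate block, 1 gene was called lower and 0 above the other members. Same-numbered libraries had correlations of their deviations across all tested genes of 0.10, 0.04 and 0.19, so the numbers were not taken as pairs. The sums and the subunit ratio kept their direction under the alternatives run.

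Of the named genes, signs turned as follows. Under median-ratio scaling RPL5 was at -0.16, RPL34 at -0.0784, RPL17-C18orf32 at -0.0435, RPL36AL at -0.11 and CD14 at -0.0541. Under quantile normalization RPS18 was at 0.0082, GNB2L1 at 0.0281 and CD14 at -0.13. Without replicate 3 of both groups RPL34 was at -0.0944, RPL17-C18orf32 at -0.11, RPL22L1 at -0.12, RPL36AL at -0.0336 and NAP1L1 at 0.0731. With single libraries left out the ranges were -0.0286 to 0.0961 for RPL5, -0.0412 to 0.22 for RPL34, -0.038 to 0.27 for RPL17-C18orf32, -0.0116 to 0.61 for RPL22L1, -0.0156 to 0.15 for RPL36AL, -0.16 to 0.0798 for RPS27L, -0.24 to 0.13 for NAP1L1 and -0.0255 to 0.21 for CD14. None of these genes was called with all libraries. TPM keep no depth, so what sequencing depth limits here is unknown.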

Other observations

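Several pseudogenes of ribosomal protein genes differed between libraries of the same culture by more than their parents did. They were chosen after their values were seen. RPL39P3 stood at 286, 43.1 and 94.8 TPM in the 3D replicates and at 37.4, 49.1 and 295 in the 2D replicates, while RPL39 ranged from 4552 to 6767. RPS28P7 was also highest in 3D replicate 1 and 2D replicate 3, at 299 and 240 TPM against 79.6 to 123 in the other libraries, and RPL23AP42 had 77.4 and 79.0 TPM in those libraries against 46.0 to 56.9. RPL3P4 was highest in 2D replicate 2, at 345 TPM against 82.2 to 162 elsewhere.

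RPS26, the least abundant ribosomal protein gene, spread most: it had 152, 132 and 195 TPM in 3D and 148, 186 and 285 in 2D, with 2D replicate 3 the highest, whereas that library was the lowest 2D library for most other members.

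Outside the ribosomal protein genes, 719 tested genes had the C and T stretch at a listed start. Their median log2 fold change was 0.02, with 4.45% called lower and 9.04% higher in 3D (limma, adjusted p under 0.05). In the 9795 tested genes without it the median was 0.14, with 1.84% called lower and 11.2% higher. Among 13 genes of ribosome dormancy and rescue, 1 rose, where 10.2% of all tested genes did. It was ASCC3, which takes apart collided ribosomes and went from 16.8 ± 2.80 to 31.4 ± 2.18 TPM (SD, n = 3 each; 0.88, SE 0.16, limma adjusted p = 0.0157). None of the 13 fell.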
